A study of Mus musculus with 8 samples.

Results

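The genes described here are 40 genes that cells use to copy their DNA and to divide: the replicative helicase and its loading factor, the enzymes that supply nucleotides, the cyclins and Cdk1, the mitotic kinases and the spindle checkpoint, kinetochore proteins, spindle motors and cytokinesis proteins, the anaphase-promoting complex, the proliferation markers Mki67 and Top2a, and Foxm1. They were chosen by name as mitotic and replication genes, and 39 of the 40 had a probe set assigned to them alone, among 18193 genes represented in the data. Ccnb1, the cyclin that activates Cdk1 at the entry into mitosis, had no probe set annotated to it alone and was not analysed here. RNA from the retinal pigment epithelium and the vascular layer beneath it (RPE/choroid) was hybridized to Affymetrix arrays, 4 from old mice aged 26 months and 4 from young mice aged 4 months. All were male C57BL/6 mice with no stated treatment, and each array held 4 RPE/choroids pooled from 2 animals, so that a replicate is a pooled pair of mice and the p-values measure the spread between such pools. The deposited values are linear intensities, and 8 arrays limit the precision of every value.

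Cells entering the division cycle first switch on the genes of DNA replication, which E2F transcription factors control, and later the genes of mitosis, which depend on Foxm1, B-Myb and the CCAAT-binding factor NF-Y. Most of these transcripts are scarce in resting tissue. The RPE of the adult mouse is a sheet of cells that do not normally divide, whereas the choroid also holds endothelial cells, fibroblasts, melanocytes and immune cells, some of which can. In RNA from a whole tissue, fewer cells of a type and less RNA per cell cannot be told apart.

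The tissue label was checked against marker genes. The RPE gene Rpe65, the isomerase of the visual cycle, had intensities of 10806 to 11414 in the old arrays, against 10929 to 12118 in the young arrays. The summed intensity of 8 RPE markers was 69692.5 to 72850 in old and 76126 to 78203 in young arrays, with 0 genes higher and 3 lower. Of 10 macrophage markers 8 were higher and 0 lower, with summed intensities of 33725 to 36074 in old and 21740 to 24662 in young arrays, and 4 of 7 T cell genes were higher with 0 lower, their sums being 1175 to 1389 in old and 984 to 1169 in young arrays. Of 8 endothelial markers 0 were higher and 7 lower (sums of 9414 to 11171 in old and 12059 to 14903 in young arrays), and of 6 melanocyte markers 0 were higher and 5 lower (sums of 43932 to 51985 in old and 54980 to 56407 in young arrays). Transcripts of rod photoreceptors were present in every array, where 7 rod markers summed to 6507 to 17749 in old and 8607 to 18550 in young arrays. None of these markers was listed at 0. Array medians were 129 to 135, arrays of the same age had a correlation of at least 0.991 across probe sets, and the highest correlation between an old and a young array was 0.989.

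The cell division genes were called at shares near those of all genes, in both directions. At an adjusted p under 0.05 (limma, Benjamini-Hochberg over all probe sets), 4 of the 39 were higher in old RPE/choroid (10.3%, where 11.8% of all genes were) and 3 were lower (7.69%, where 9.56% of all genes were). The genes that rose were the helicase subunits Mcm3 and Mcm4, the sliding clamp Pcna and the centromeric histone Cenpa, each by a log2 fold change of 0.17 to 0.24. The genes that fell were Foxm1, by 0.17, and the kinetochore genes Cenpe and Spc25, by 0.68 and 1.51. The median log2 fold change of the 39 genes was -0.05, beside -0.02 for all genes. Of the 39, 35 had a 95% interval that lay within 0.5 of 0 on the log2 scale, as had 14989 of all 18193 genes. No member passed a fold over 2 with an adjusted p under 0.01, as 1.23% of all genes did. An unadjusted p under 0.05 (limma) was found for 14 of the 39 members and for 6804 of all 18193 genes. With 1 array left out, the count of members higher was 3 if this was young replicate 2, 2 for old replicates 1 and 4, 1 for old replicates 2 and 3 and young replicate 1, and 0 for young replicates 3 and 4, when 8.11% to 12.2% of all genes were called higher. The count of members lower was 2 to 4, when 5.24% to 9.71% of all genes were called lower, and it included Cenpe and Spc25 each time.

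**Figure D1:**
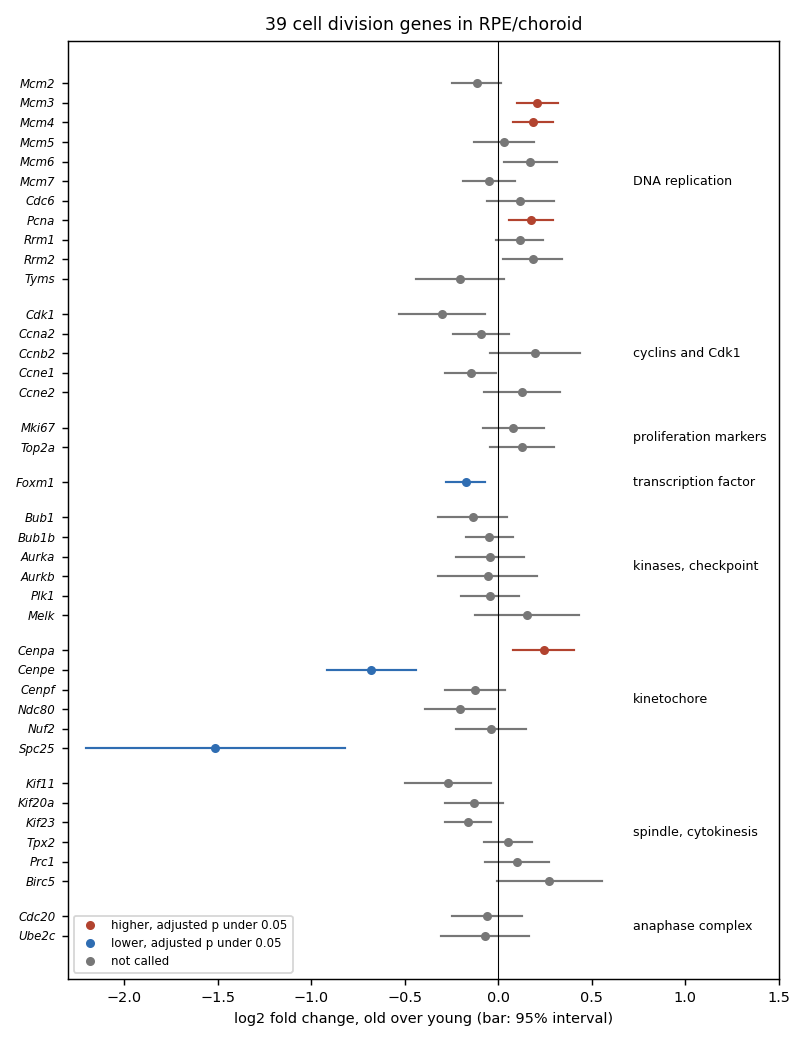
Log2 fold change of old over young RPE/choroid (horizontal axis, bars are 95% intervals) for the 39 cell division genes with a probe set of their own, grouped by role, with genes past an adjusted p of 0.05 in colour. The intervals of 35 genes lie within 0.5 of 0, and those of Cenpe and Spc25 reach farthest to the left.

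The promoters of these genes carry sequence elements that the choice of the genes did not use, and 6 are shown for the members described in most detail. RefSeq promoters of the mouse assembly GRCm38.p6, which run from 250 bases before to 50 bases after the transcription start, were matched for 33 of the 40 genes. Each stretch below runs from 110 bases before to 25 bases after the start, 5′ to 3′ on the strand of the gene. Capitals mark the letters CCAAT, to which NF-Y binds, and TTTGAA, the core of the cell cycle genes homology region that the repressor complex DREAM recognises, each on either strand. Cenpe lies at chr3:135212453-135212587 on the plus strand, Spc25 at chr2:69206189-69206323 on the minus strand, Cenpa at chr5:30666776-30666910 on the plus strand, Mcm3 at chr1:20820288-20820422 on the minus strand, Pcna at chr2:132253156-132253290 on the minus strand and Cdk1 at chr10:69352888-69353022 on the minus strand.
Cenpe: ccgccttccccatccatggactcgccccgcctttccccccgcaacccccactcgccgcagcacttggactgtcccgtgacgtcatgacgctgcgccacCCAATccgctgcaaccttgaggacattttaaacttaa
Spc25: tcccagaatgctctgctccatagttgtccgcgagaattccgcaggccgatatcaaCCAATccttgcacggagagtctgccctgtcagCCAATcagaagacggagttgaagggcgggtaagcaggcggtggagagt
Cenpa: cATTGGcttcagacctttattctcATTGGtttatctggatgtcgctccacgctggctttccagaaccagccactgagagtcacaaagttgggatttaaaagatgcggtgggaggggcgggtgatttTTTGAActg
Mcm3: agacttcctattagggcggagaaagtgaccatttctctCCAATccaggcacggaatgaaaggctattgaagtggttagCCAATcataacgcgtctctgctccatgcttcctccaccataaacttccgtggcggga
Pcna: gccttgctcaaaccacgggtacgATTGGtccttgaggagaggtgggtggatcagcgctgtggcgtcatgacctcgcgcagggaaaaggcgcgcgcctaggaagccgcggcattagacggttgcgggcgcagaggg
Cdk1: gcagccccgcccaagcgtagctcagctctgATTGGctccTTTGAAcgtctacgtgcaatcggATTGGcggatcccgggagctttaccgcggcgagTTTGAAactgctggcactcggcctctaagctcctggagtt

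Spc25, Cenpa, Mcm3 and Cdk1 each show CCAAT letters, on either strand, at 2 places in the stretch, and Cenpe and Pcna at 1. Cdk1 shows TTTGAA at 2 places as well, and Cenpa at 1. Over the promoter windows of 300 bases, CCAAT or its complement ATTGG occurred in 26 of the 33 members (78.8%), beside 41.1% of the 27025 genes in the table. TTTGAA or TTCAAA occurred in 17 of 33 (51.5%), beside 20.2% of all genes, and in 1 of 10 replication genes (Mcm2) but 16 of 23 other members, Spc25 and Cenpa among them. E2F sites were searched on either strand as TTGGCGC, in the form of TTCCCGC, in the form of TTGCCGC and in the form of TTCGCGC, and occurred in 10 of 33 members (30.3%) and 10.9% of all genes. They were in 7 of 10 replication genes, Mcm3 among them, and in 3 of 23 others (Ccnb1, Cdk1 and Mki67). Of the called members, Foxm1 and Mcm4 have no entry in the table. These matches are letters in a window, not measured binding.

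Of the 4 called rises, 3 were of replication genes. Of 11 measured, 3 were higher (27.3%, where 11.8% of all genes were) and 0 lower (where 9.56% of all genes were). Their median log2 fold change was 0.12. The heterohexamer of Mcm2 to Mcm7 is the helicase that is loaded on replication origins. Mcm3 had intensities of 234, 247, 231 and 239.6 in the old arrays, against 207, 210.3, 204 and 202 in the young arrays. All 4 old arrays lay above all 4 young ones, with means of 238 ± 6.93 in old and 206 ± 3.63 in young arrays (SD, n = 4 each) and a log2 fold change of 0.21 ± 0.05 (SE, adjusted p = 0.0195). Mcm4, another subunit, had 419.8, 420.2, 416 and 399.9 in the old arrays, against 363, 363, 367 and 362 in the young arrays, again without overlap, and a log2 fold change of 0.19 ± 0.05 (SE, adjusted p = 0.025). Pcna, the clamp that holds DNA polymerases on their template, in replication and in repair, had 2455, 2479, 2422 and 2513 in the old arrays, against 2153, 2328, 2167 and 2108 in the young arrays. Its log2 fold change of 0.17 ± 0.05 (SE, adjusted p = 0.0472) rests on groups that did not overlap. The call of Mcm3 was lost without young replicate 3 or young replicate 4, when its adjusted p was at most 0.058 and its log2 fold change at least 0.19. Mcm4 kept its call only without old replicate 1, old replicate 4 or young replicate 2, and Pcna only without young replicate 2, over log2 fold changes of 0.18 to 0.20 and 0.16 to 0.20. With the mean of all probe sets of a gene, the call of Mcm4 was lost (0.15, adjusted p = 0.101). That of Pcna was lost after quantile normalization of the arrays.

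The remaining helicase genes did not pass. Mcm2, the subunit used as a marker of licensed cells, had 347, 339, 341 and 359 in the old arrays, against 363, 352, 392 and 398 in the young arrays, and its log2 fold change was -0.12 (95% interval -0.25 to 0.01, adjusted p = 0.195). Its ages overlapped, and its value was on the other side of 0 from those of Mcm3 and Mcm4. Mcm6 ran from 486 to 557 in the old arrays, against 444 to 485 in the young arrays, without overlap, and its log2 fold change was 0.17 (95% interval 0.03 to 0.31, adjusted p = 0.0907). Mcm5 and Mcm7 had log2 fold changes of 0.03 and -0.05. Rrm1 and Rrm2, the subunits of ribonucleotide reductase, which makes deoxynucleotides, had log2 fold changes of 0.11 and 0.18, and Rrm2 did not overlap between the ages (64.0 to 71.1 in the old arrays, against 52.7 to 63.1 in the young arrays). Tyms, which makes thymidylate, had a value of -0.20 and Cdc6, which loads the helicase, 0.12, at intensities of 27.7 to 31.5 in the old arrays, against 24.0 to 29.8 in the young arrays. Thus 5 of the 11 replication genes had all old arrays above all young arrays, and with Cenpa 6 of the 39 members did, where 15.8% of all genes did.

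The macrophage and T cell markers, higher in old arrays by the counts given above, moved in the same direction as Mcm3, Mcm4 and Pcna, and their part in these rises was not tested. Within the old arrays the macrophage list was highest in old replicate 2, with a mean centred log2 value of 0.62 against 0.33 to 0.51 in the other old arrays, and -0.54 to -0.34 in young arrays. Its genes differed in this. Cd14 had 2073 in old replicate 2, against 553 to 628 in the other old arrays, and Mrc1 and Itgam were also highest there. Cd68, Adgre1, Aif1, Lyz2, C1qa and Trem2 were highest in old replicate 3, and Csf1r in old replicate 1. The T cell list was highest in old replicate 3, with 0.46 against 0.12 to 0.29 in the other old arrays. Mcm3 was highest in old replicate 2, as was Mcm4, by less than 1 unit of intensity over old replicate 1, and Pcna was highest in old replicate 4. Among the old arrays, Mcm3 and Pcna were lowest in old replicate 3 and Mcm4 in old replicate 4.

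None of the 5 measured genes of the cyclins and Cdk1 was called. Cdk1, the kinase that drives mitosis, had intensities of 312, 225, 283 and 262 in the old arrays, against 362, 343, 319.9 and 300.4 in the young arrays. Most old arrays lay below the young ones, but old replicate 1 exceeded young replicate 4, and the log2 fold change was -0.30 (95% interval -0.53 to -0.07, adjusted p = 0.0737). An exact permutation test over the 70 splits of the arrays gave p = 0.0571, where the smallest p that 4 arrays against 4 can give is 0.0286. Cdk1 was called lower without old replicate 1, with eBayes trend and robust estimation, and when probe sets of low level were left out. The S-phase and mitotic cyclin Ccna2 had a log2 fold change of -0.09 and Ccnb2, a partner of Cdk1, one of 0.19. The G1 cyclins Ccne1 and Ccne2 had values of -0.15 and 0.13.

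Mki67, the antigen by which dividing cells are counted in tissue sections, did not differ beyond the spread of the arrays. It had intensities of 94.6, 89.5, 86.0 and 83.3 in the old arrays, against 84.7, 84.9, 74.2 and 90.7 in the young arrays, and its log2 fold change was 0.08 (95% interval -0.08 to 0.25, adjusted p = 0.479). Top2a, the topoisomerase that disentangles chromosomes, had 80.2, 91.7, 76.8 and 91.7 in the old arrays, against 71.4, 80.4, 80.1 and 79.3 in the young arrays, and its log2 fold change was 0.13 (95% interval -0.05 to 0.30, adjusted p = 0.282). The ages overlapped for both genes, and every array lay below its own median intensity for both, as for 22 of the 39 members in all. Another 13 members were above the median in all 8 arrays, and 4 (Foxm1, Plk1, Spc25 and Ccne1) were above it in some. Detection calls were not used, so a dim probe set may hold little more than background.

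**Figure D2:**
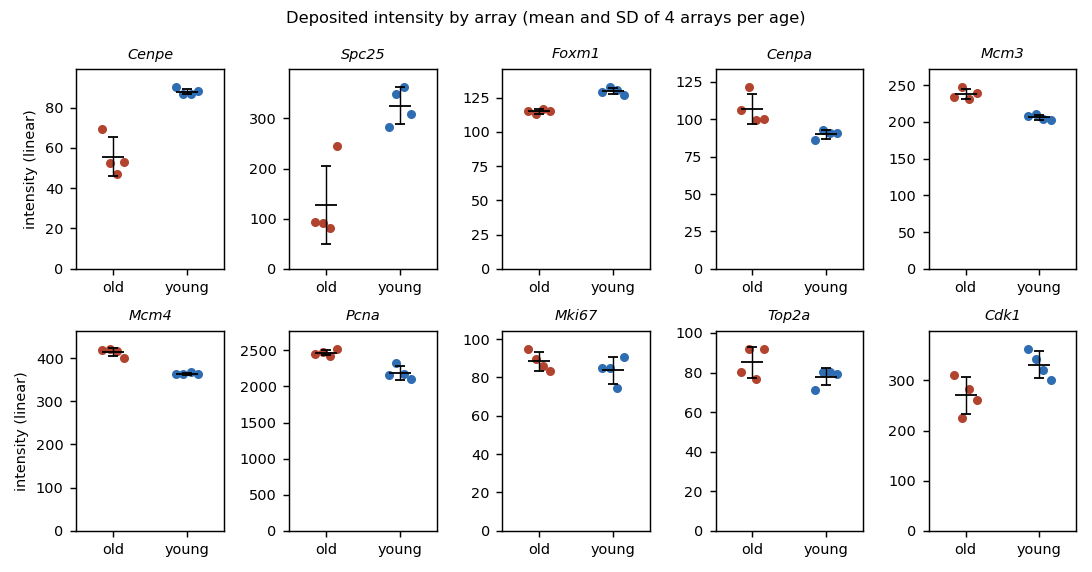
Deposited intensity (linear, axis from 0) of the 7 called members and of Mki67, Top2a and Cdk1 in each of 4 old (left) and 4 young (right) arrays, with the mean and SD. Old and young arrays do not overlap for Cenpe, Spc25, Foxm1, Cenpa, Mcm3, Mcm4 and Pcna, and overlap for Mki67, Top2a and Cdk1.

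Foxm1, the transcription factor that switches on mitotic genes, fell slightly in old RPE/choroid. It had intensities of 115, 113, 117 and 115 in the old arrays, against 129, 132, 131 and 127 in the young arrays. Every old array was below every young array, and the log2 fold change of -0.17 ± 0.05 (SE, adjusted p = 0.0306) corresponds to means of 115 ± 1.64 in old and 129.9 ± 2.24 in young arrays (SD, n = 4 each). The 4 probe sets of Foxm1 all had negative log2 fold changes, of -0.32 to -0.14, and 2 of the 4 passed. The call held with 1 array left out only without old replicate 1, with adjusted p up to 0.083 otherwise and a log2 fold change of -0.18 to -0.17, and it was lost after median centring or quantile normalization of the arrays and with the trend and robust options of eBayes.

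By their brightest probe sets, the kinases and checkpoint genes stayed close to 0. Plk1 and Aurkb, kinases of spindle assembly and chromosome alignment, had log2 fold changes of -0.05 and -0.06, Aurka, the kinase of the spindle poles, -0.04, and Melk, a kinase of dividing and progenitor cells, 0.16. The checkpoint genes Bub1 and Bub1b, which delay anaphase until kinetochores are attached, had values of -0.14 and -0.05. By these probe sets none of the 6 passed the test, and each 95% interval lay within 0.5 of 0. Dimmer probe sets were called for Aurka (0.34, limma adjusted p = 0.0283) and Bub1b (-0.21, limma adjusted p = 0.0368). Cdc20 and Ube2c, the activator and the ubiquitin-conjugating enzyme of the anaphase-promoting complex, had values of -0.06 and -0.07, and neither passed.

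The kinetochore genes held the largest called changes among the members, in both directions. Of 6 genes, 1 was higher (16.7%, where 11.8% of all genes were) and 2 were lower (33.3%, where 9.56% of all genes were). Their median log2 fold change was -0.17. Cenpe, the motor protein that carries chromosomes to the spindle equator, had intensities of 69.4, 52.6, 47.1 and 52.9 in the old arrays, against 90.0, 86.8, 87.0 and 88.0 in the young arrays. The young arrays lay close together, and old replicate 1 stood closest to them. The means were 55.5 ± 9.67 in old and 87.9 ± 1.45 in young arrays (SD, n = 4 each), a log2 fold change of -0.68 ± 0.11 (SE, adjusted p = 0.00315). Cenpe kept its call with any 1 array left out, at log2 fold changes of -0.79 to -0.60. The endothelial and melanocyte lists were also lower in old arrays and, by their means, also closest to the young arrays in old replicate 1. The endothelial list had a mean centred log2 value of -0.05 there, against -0.31 to -0.18 in the other old arrays. The melanocyte list had 0.03 there, against -0.24 to -0.12. The endothelial genes differed in this. Among the old arrays Kdr, Tek, Tie1 and Emcn were highest in old replicate 1, but Cdh5, Esam and Pecam1 in old replicate 2 and Plvap in old replicate 4. Pecam1 was not lower in old arrays, with a log2 fold change of 0.02. The RPE list was also closest to the young arrays in old replicate 1. It had -0.03 there, -0.08 to -0.04 in the other old arrays and 0.02 to 0.09 in young arrays. The part of these 3 lists in the fall of Cenpe was not tested.

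Spc25, a subunit of the Ndc80 complex that binds microtubules, had the largest change of the 39 genes. Its intensities were 92.9, 91.1, 80.6 and 244 in the old arrays, against 283, 349, 362 and 309 in the young arrays. Old replicate 4 stood apart from the other old arrays and still lay below every young array. The log2 fold change of -1.51 ± 0.31 (SE, adjusted p = 0.0107) corresponds to means of 127 ± 78.3 in old and 326 ± 36.1 in young arrays (SD, n = 4 each), and without old replicate 4 the value was -1.88 (adjusted p = 6.69e-05). Across all single arrays left out it was -1.88 to -1.35, and called each time. The other probe set of Spc25 had 93.6, 95.01, 114 and 115 in the old arrays, against 111, 107, 105 and 109 in the young arrays, and a log2 fold change of -0.06 (adjusted p = 0.662), and the mean of both gave -0.78 (adjusted p = 0.0133). The fall was thus seen by 1 of the 2 probe sets, the one whose probes match several transcripts of the gene. The partners of Spc25 in the complex, Ndc80 and Nuf2, had log2 fold changes of -0.21 (adjusted p = 0.118) and -0.04 (adjusted p = 0.773).

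Old replicate 4 stood apart from the other old arrays for retinal transcripts too. Of 8 inner retinal markers, 5 were lower in old arrays and 0 higher, and their summed intensity was 3811 to 6088 in old and 7108 to 8456 in young arrays. Their mean centred log2 values were -0.72, -0.81, -0.84 and 0.14 in old replicates 1 to 4 and 0.50 to 0.68 in young arrays, and Spc25, centred in the same way, was at -1.05, -1.08, -1.26 and 0.35 in the old and 0.56 to 0.91 in the young arrays. Old replicate 4 lay below every young array for Spc25, and likewise for 5 of the 8 inner retinal genes (Cartpt, Stmn3, Grik1, Gria1 and Slc6a9). Stmn3, a microtubule-binding protein of neurons, had 704, 553, 522 and 884 in the old arrays, against 1448 to 1674 in the young arrays. Old replicate 4 was above every young array for the synaptic protein Snap25 (1271 there, against 887 to 1165 in the young arrays) and the neurofilament Nefl, and within the young range for Pou4f1. The rod list had values of -0.74, -0.25, -0.93 and 0.64 in old and 0.65, 0.69, 0.46 and -0.51 in young arrays, so that young replicate 4 was low for rods and not for Spc25, which had 309 there. Of 8 markers of Mueller cells, the glia of the retina, 1 was higher and 4 were lower. Their mean centred log2 values were -0.38, -0.59, -0.29 and -0.07 in old replicates 1 to 4, against 0.25 to 0.40 in young arrays, and their summed intensity was 19671 to 21029 in old and 19814 to 21818 in young arrays. Slc1a3, the glutamate transporter of these cells, had 159, 94.6, 168 and 246 in the old arrays, against 473, 357, 441 and 414 in the young arrays, so that old replicate 4 was the highest of the old arrays and below every young one, as for Spc25. The other called Mueller cell genes did not share this. Among the old arrays Gfap was highest in old replicate 3 (133, against 116 in old replicate 4) and Fabp7 in old replicate 1 (137, against 135 in old replicate 4). Rax was highest in old replicate 4, at 324, inside its young range of 323 to 389. Vim, the gene called higher, was highest in old replicate 2. The part of retinal RNA, neuronal or glial, in the difference of Spc25 was not tested.

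**Figure D3:**
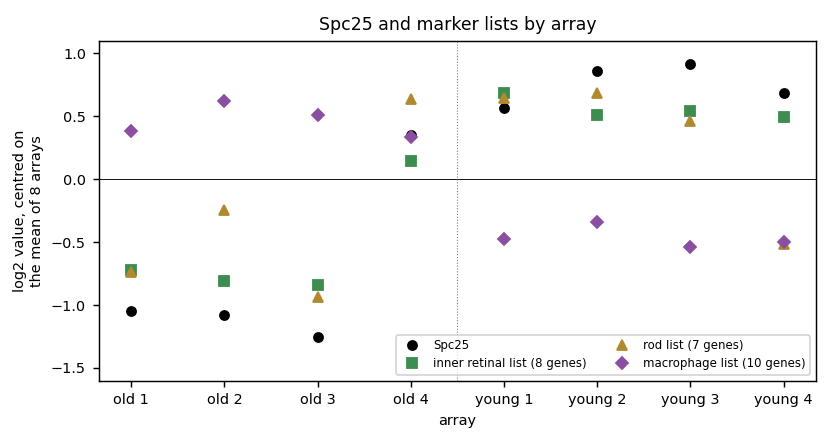
Log2 value of Spc25 and mean log2 value of 3 marker lists (vertical axis, each centred on its mean over 8 arrays) by array, old left and young right. Spc25 and the inner retinal list are below 0 in old replicates 1 to 3 and above 0 in old replicate 4 and all young arrays, and the macrophage list is above 0 in all old arrays.

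Cenpa, the histone variant that marks centromeres, had intensities of 106, 121, 99.7 and 100.1 in the old arrays, against 85.9, 92.6, 90.9 and 91.0 in the young arrays. The ages did not overlap, old replicate 2 was highest, and the log2 fold change of 0.24 ± 0.07 (SE, adjusted p = 0.0453) was called over all arrays but in none of the 8 fits with an array left out, where its adjusted p was 0.0519 to 0.108 and its log2 fold change 0.18 to 0.27. The other 2 probe sets of Cenpa had values of -0.10 and -0.07, neither called, and the mean of all 3 had 0.026 (adjusted p = 0.842). Cenpf, a large protein of the outer kinetochore, had a log2 fold change of -0.12 and was not called.

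By their brightest probe sets, the spindle and cytokinesis genes included no call, but a dimmer probe set of Kif11 was lower (-0.27, limma adjusted p = 0.0215). Kif11, the motor that separates spindle poles, ran from 54.9 to 69.7 in the old arrays, against 70.3 to 90.4 in the young arrays, without overlap, and its log2 fold change was -0.27 (95% interval -0.50 to -0.04, adjusted p = 0.0961). Kif23, a motor of the central spindle, ran from 137 to 148 in the old arrays, against 150.1 to 165 in the young arrays, also without overlap, with an adjusted p of 0.0689 and a value of -0.16. Kif20a, Tpx2 and Prc1, which organise the spindle and its midzone, had values of -0.13, 0.05 and 0.10. Birc5, the survivin subunit of the chromosomal passenger complex, had the highest uncalled value, 0.27, at intensities of 56.6 to 74.6 in the old arrays, against 47.5 to 68.7 in the young arrays. Together with Foxm1, Cenpe and Spc25, Kif11 and Kif23 made 5 of 39 members with all old arrays below all young arrays, where 13.7% of all genes were.

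Different probe sets of the same gene did not always move together. The 39 members had 87 probe sets of their own, of which 8 were higher and 8 lower, and 26 members had more than 1. The share called over all probe sets was not counted. Of all genes, each by its brightest probe set, 11.8% were higher and 9.56% lower. Of the 5 probe sets of Mcm3, 4 were higher, by 0.21 to 0.47, and 1 was lower, with a value of -0.23 (adjusted p = 0.0488). All 3 probe sets of Mcm6 had positive values, of 0.17 to 0.29, and none was called. Tyms had 4 probe sets, and a dim one of them was lower, with 26.3, 23.0, 29.5 and 31.1 in the old arrays, against 42.5, 39.5, 41.3 and 34.6 in the young arrays, a log2 fold change of -0.53 (adjusted p = 0.00921). Aurka was higher by its dimmer probe set, at 0.34 (adjusted p = 0.0283), beside -0.04 by its brighter probe set. Bub1b was lower by 1 of its 3 probe sets, at -0.21 (adjusted p = 0.0368), and Kif11 likewise by 1 of 3, at -0.27 (adjusted p = 0.0215). The other probe set of Cenpe was dim, at 11.97 to 18.3 in old and 13.6 to 23.0 in young arrays, and had a value of -0.24 (adjusted p = 0.397).

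**Figure D4:**
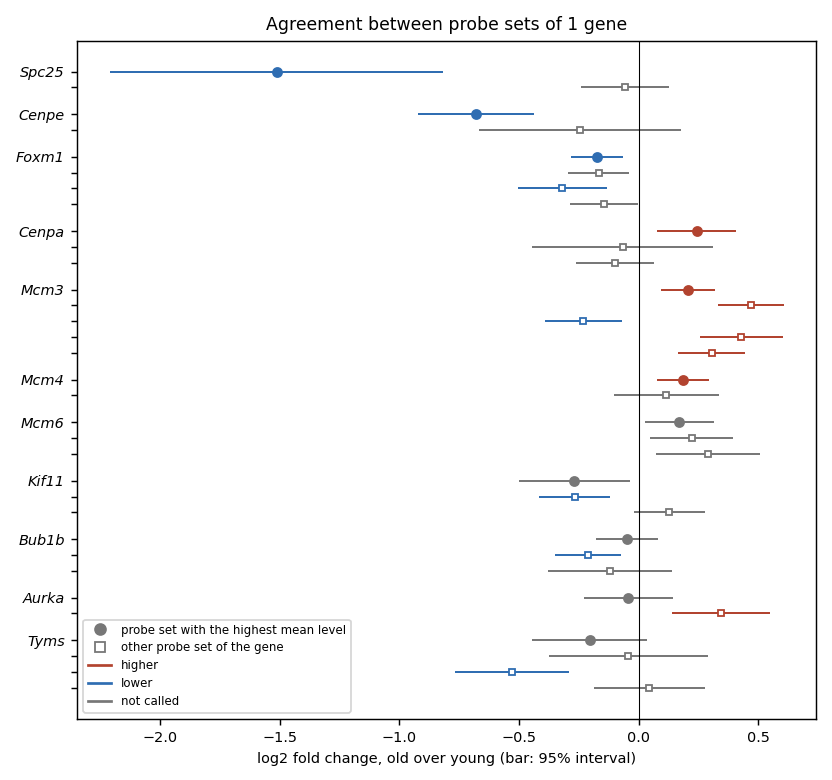
Log2 fold change of old over young (horizontal axis, bars are 95% intervals) for every probe set of 11 members that have more than 1, with the brightest probe set as a filled circle and the others as open squares. The 2 probe sets of Spc25 lie at -1.51 and -0.06, and 4 of the 5 of Mcm3 lie above 0.

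Genes beside the 40 were examined by lists written by role. Of 139 measured genes of replication, mitosis, cell cycle entry and cell cycle restraint, 26 were higher and 8 lower, a split that became 23 and 12 after quantile normalization. Of all genes, 11.8% were higher and 9.56% lower, and 10.6% and 11.3% after quantile normalization. The count higher was 16 without old replicate 3, 17 without old replicate 4, 15 without young replicate 3 and 18 to 25 without another array, and the count lower was 11 for young replicate 2, 10 for old replicate 1, 5 for old replicate 4, 3 for old replicate 2 and young replicates 3 and 4, and 2 for old replicate 3 and young replicate 1. Of 41 further replication genes 5 were higher and 1 lower, with a median log2 fold change of 0.04. Cdt1, which loads the helicase at origins, had 247, 314, 334 and 288 in the old arrays, against 162, 196, 182 and 179.9 in the young arrays, with a log2 fold change of 0.71 ± 0.10 (SE, adjusted p = 0.0018). Dbf4, the activating subunit of the Cdc7 kinase, had 109, 167, 144 and 116 in the old arrays, against 85.8, 98.3, 76.1 and 87.3 in the young arrays, with a log2 fold change of 0.61 ± 0.14 (SE, adjusted p = 0.0152). Both were higher in every old array. Rfc2, a subunit of the clamp loader, and Gmnn, the inhibitor of Cdt1, rose by 0.22 and 0.21 on the log2 scale, and Tk1, the thymidine kinase of dividing cells, was lower, with a value of -0.20. With 1 array left out, Cdt1 and Dbf4 kept their calls each time, but with the mean of all probe sets of a gene Dbf4 had 0.25 and lost its call (adjusted p = 0.0839), and Cdt1 had 0.40 and kept it. Gmnn did so in 6 of 8 fits (lost without old replicate 3 or old replicate 4), Rfc2 only without old replicate 2 and Tk1 only without old replicate 1.

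Of 48 further mitosis genes 5 were higher and 5 lower, 10.4% in each direction, where 11.8% of all genes were higher and 9.56% lower. Ncapg, a condensin subunit, had 91.0, 72.6, 70.1 and 72.4 in the old arrays, against 109.6, 104, 120.0 and 115 in the young arrays, with a log2 fold change of -0.56 ± 0.09 (SE, adjusted p = 0.00358). Cenpi, a protein of the inner kinetochore, had 83.0, 81.2, 83.2 and 77.0 in the old arrays, against 114, 115, 97.2 and 117 in the young arrays, with a log2 fold change of -0.45 ± 0.07 (SE, adjusted p = 0.00318). Old replicate 1 was the highest of the old arrays for Ncapg, as for Cenpe. Stmn1, a microtubule-destabilising protein that neurons also make, had 1291, 971, 1036 and 1417 in the old arrays, against 1645, 1578, 1588 and 1473 in the young arrays, with a value of -0.43, and Kif4, a motor of condensing chromosomes, one of -0.34. The genes that rose were led by Tacc3, a spindle protein, with 86.8, 99.98, 97.3 and 103 in the old arrays, against 72.2, 72.3, 73.1 and 70.1 in the young arrays, with a log2 fold change of 0.43 ± 0.06 (SE, adjusted p = 0.00247). Ect2, the exchange factor that starts the cleavage furrow, rose by 0.39, Zwilch, a kinetochore checkpoint protein, by 0.36 and Kifc1, a spindle motor, by 0.21. Ncapg, Cenpi, Tacc3 and Zwilch kept their calls with any array left out, but that of Ncapg was lost with the mean of all its probe sets (-0.20, adjusted p = 0.112) and that of Tacc3 with plain _at probe sets only, whose names carry no suffix for shared probes (0.027, adjusted p = 0.878). Ect2 lost its call without young replicate 3, Kif4 without old replicate 3, young replicate 1, young replicate 3 or young replicate 4, Stmn1 kept it only without old replicate 1 or old replicate 4, and Kifc1 only without old replicate 1.

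Of 27 genes listed for the entry into the cycle and its timing, 7 were higher (25.9%, where 11.8% of all genes were). Lower were 2 (7.41%, where 9.56% of all genes were), and the median log2 fold change was 0.07. The list mixes genes that drive the cycle with genes that hold it back, such as Wee1. E2f2, an activating E2F factor, had 119.7, 248, 130.2 and 118 in the old arrays, against 65.0, 61.8, 70.2 and 63.8 in the young arrays, with a log2 fold change of 1.17 ± 0.21 (SE, adjusted p = 0.00646), and Wee1, the kinase that holds Cdk1 inactive, had 615, 689.9, 776 and 655 in the old arrays, against 417, 423, 409 and 456 in the young arrays, with a log2 fold change of 0.68 ± 0.08 (SE, adjusted p = 0.000625). Skp2, which targets Cdk inhibitors for degradation, and Lin54, the DNA-binding subunit of the MuvB complex, rose by 0.40 and 0.34. These 4 kept their calls with any array left out. With the mean of all probe sets of a gene, however, Wee1 had 0.17 (adjusted p = 0.134) and Lin54 0.16 (adjusted p = 0.112), neither called, and E2f2 and Skp2 had 0.77 and 0.19, both called. The D cyclin genes Ccnd1 and Ccnd2, which respond to growth signals, fell. Ccnd1 had 2111, 1573, 1427 and 1561 in the old arrays, against 2384, 2344, 2258 and 2158 in the young arrays, with a log2 fold change of -0.47 ± 0.11 (SE, adjusted p = 0.02), and Ccnd2 had 2163, 1544, 1196 and 1571 in the old arrays, against 2170.0, 2411, 2298 and 2401 in the young arrays, with a log2 fold change of -0.55 ± 0.15 (SE, adjusted p = 0.0338). For both, old replicate 1 was the highest of the old arrays, as it was for Cenpe and for the means of the endothelial, melanocyte and RPE lists. The part of these lists in the falls of Ccnd1 and Ccnd2 was not tested. The call of Ccnd1 was lost without old replicate 2, old replicate 3 or young replicate 1, and that of Ccnd2 in every fit but that without old replicate 1.

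Of 23 genes that restrain the cycle, 9 were higher (39.1%, where 11.8% of all genes were) and 0 lower (where 9.56% of all genes were). Their median log2 fold change was 0.20. The split was 7 and 2 after quantile normalization, when 10.6% of all genes were higher and 11.3% lower. The list was written with earlier results of these data known. Cdkn1a, the Cdk inhibitor p21 that p53 induces, had 408, 1091, 583 and 539 in the old arrays, against 278, 283, 279 and 296 in the young arrays. No old array overlapped the young ones, and old replicate 2 was far above the other old ones, with a log2 fold change of 1.11 ± 0.24 (SE, adjusted p = 0.0152) that was 0.83 without it. Cdkn1c, the inhibitor p57, had 1620.1, 1873, 2140.2 and 1756 in the old arrays, against 1132, 1141, 1104 and 1146 in the young arrays, without overlap, and a log2 fold change of 0.70 ± 0.08 (SE, adjusted p = 0.000696). Gadd45a, a stress and DNA damage response gene, had 494, 762, 508 and 501 in the old arrays, against 245, 278, 263 and 248.6 in the young arrays, with a log2 fold change of 1.11 ± 0.13 (SE, adjusted p = 0.000832). Gadd45g, its relative, had 236, 361, 384 and 309 in the old arrays, against 178, 214, 222 and 251 in the young arrays, with 1 old array inside the range of the young ones, and a value of 0.57. The others that rose were Btg1, Cdkn2c, Ccng2, Rb1 and Rbl2, by 0.20 to 0.37. Cdkn1a, Cdkn1c and Gadd45a were called with any array left out, and Gadd45g only without old replicate 1 or young replicate 4. The count of 9 was 9 without old replicate 1, 7 without old replicate 2, 8 without young replicate 4 and 5 without each of the other arrays. In these fits 8.11% to 12.2% of all genes were called higher.

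Old replicate 2, which was highest for Cdkn1a, Gadd45a and E2f2, also stood apart in neutrophil markers. Their mean centred log2 value was 1.82 there, -0.35 to 0.30 in the other old arrays and -0.69 to -0.37 in young arrays, and their summed intensity was 17768 there, against 1472 to 2716 in the other old arrays and 1112 to 1391 in the young arrays. Of 8 neutrophil markers 2 were higher and 1 lower. By list mean and sum, old replicate 2 was highest for plasma cell markers as well. Of 7 such markers 2 were higher and 1 lower, their mean centred log2 value was 0.91 there, 0.45 to 0.58 in the other old arrays and -0.73 to -0.42 in young arrays, and their summed intensity was 11112 there, 6859 to 7266 in the other old arrays and 4017 to 4690.0 in young arrays. The genes of both lists differed in this. Among the old arrays Igha, Jchain, Xbp1 and Tnfrsf17 were highest in old replicate 2, but Sdc1 and Mzb1 in old replicate 3. Prdm1 was lowest in old replicate 2, at 148, as was the neutrophil gene Elane, at 189. S100a8 and S100a9, with 7828 and 7062 there, were the brightest neutrophil genes in that array. The part of either list in the rises of Cdkn1a, Gadd45a and E2f2 was not tested. Without old replicates 2 and 4, a choice made after seeing these marker levels, 0 members were higher and 2 lower (Cenpe and Spc25), and of the further genes 9 were higher and 3 lower, 3 restraint genes being higher, when 5.86% of all genes were called higher and 3.85% lower. Cdkn1a then had a log2 fold change of 0.78 (adjusted p = 0.0152).

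**Figure D5:**
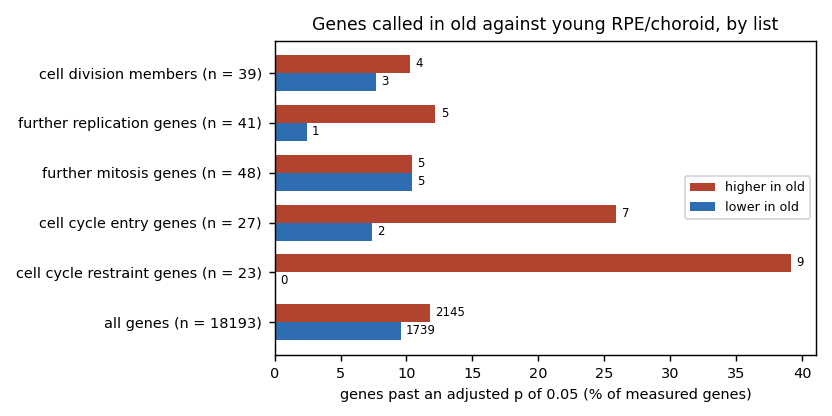
Percentage of measured genes past an adjusted p of 0.05 (horizontal axis, counts beside the bars) that were higher or lower in 4 old against 4 young arrays, for the cell division members, the 4 further lists and all genes. The members lie near all genes in both directions, and the restraint list has 9 genes higher and 0 lower.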

How the data were processed

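RNA was measured on 8 Affymetrix arrays, 4 from old and 4 from young RPE/choroid. The deposited table holds 1 linear intensity for each of 45101 probe sets and array, which the authors had normalized by a step the table does not name. The methods give RMA, invariant set normalization and BRB-ArrayTools as routes, without stating which made the deposited values, and the removal of probe sets by detection calls was not repeated. Depth does not apply to arrays, whose number limits precision.

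The 64 control probe sets were left out. Intensities under 1 (8 to 14 an array) were set to 1, and log2 values of the deposited intensities were fitted with limma 3.58.1 under R 4.3.3 (lmFit, eBayes). The model held age alone, and Benjamini-Hochberg adjustment ran over the 45037 probe sets left. Of these, 34945 named 1 gene in the platform annotation, 932 several and 9160 none. Where a gene had several, the brightest over all 8 arrays (mean log2) stands for it. No p was adjusted over a list alone. Promoters come from RefSeq (GRCm38.p6). Fits were tested on simulated data.

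The members and lists were chosen with earlier results of these data known. Named are all members, with values by array for each called member and for Mki67, Top2a, Cdk1, Pcna, Mcm2 and Foxm1, and of each further list up to 4 genes per direction with the largest called change. Birc5, Kif11, Kif23 and members whose other probe sets were called are given values as members. The alternatives tried were median centring and quantile normalization, leaving out dim probe sets (mean log2 under the median), a floor of 32, a pseudocount of 16, array weights, trend and robust options of eBayes, a replicate block, leaving out each array, other probe sets per gene, other thresholds and an exact permutation test. Leaving out old replicates 2 and 4 together was added after the data were seen.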

Additional observations from a re-analysis of the deposited data

Results flagged for a closer look

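In 10 of 124 groups of 4 arrays (62 genes by 2 ages), 1 array stood apart from the other 3 by Dixon's test at the 95% level, where chance gives about 1 in 20 groups. Among the members, Spc25 read 244 in old replicate 4 but 80.6 to 92.9 elsewhere among the old arrays. Kif11 read 90.4 in young replicate 4 but 70.3 to 73.1 in the rest, and Mcm4 read 366.9 in young replicate 3 but 362 to 363 in the rest. Top2a was 71.4 in young replicate 1 and 79.3 to 80.4 in the other young arrays. Young replicate 2 was low for Tpx2, at 76.2 against 83.0 to 83.3, and for Ube2c, at 44.4 against 60.5 to 61.9. Ube2c was called lower once that array was left out.

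Of the further genes, old replicate 2 was high for E2f2, at 248 against 118 to 130.2 elsewhere, and for Gadd45a, at 762 against 494 to 508. Old replicate 1 was high for Ncapg, at 91.0 against 70.1 to 72.6, and young replicate 3 was low for Cenpi, at 97.2 against 114 to 117 in the other young arrays.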

How the results depend on the processing

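Cenpe and Spc25 were the members whose calls held in every fit with an array left out and with the replicate block, which ended the other 5. Cenpe also held under every alternative that tested it, whereas Spc25 was lost at an adjusted p under 0.01 and with plain _at probe sets only (-0.06). The filter on low values left Cenpe, Foxm1 and Cenpa untested. Members higher were 0 with the replicate block, at an adjusted p under 0.01 and without old replicates 2 and 4, and 0 to 3 with an array left out (4 as reported). Members lower were 5 with the probe set of largest change and by the exact permutation test, 8 at an unadjusted p under 0.05, 1 at an adjusted p under 0.01 and 2 to 4 with an array left out (3 as reported). Members past both the limits of 2 in fold and 0.01 in adjusted p were 1 with the filter on low values, quantile normalization, a pseudocount of 16, without old replicates 2 and 4 or at an unadjusted p under 0.05, 2 with limits of 1.5 in fold and 0.05 in adjusted p, and 0 to 1 with an array left out (0 as reported). Further genes higher were 7 at an adjusted p under 0.01, 9 without old replicates 2 and 4 and 15 to 25 with an array left out (26 as reported). Further genes lower were 16 with array weights, the probe set of largest change and the exact permutation test, 14 with the mean of all probe sets, 20 at an unadjusted p under 0.05, 4 with the replicate block, 3 without old replicates 2 and 4, 2 at an adjusted p under 0.01 and 2 to 11 with an array left out (8 as reported). Restraint genes higher were 2 at an adjusted p under 0.01, 3 without old replicates 2 and 4 and 5 to 9 with an array left out (9 as reported). Restraint genes lower were 2 with quantile normalization, array weights, the mean of all probe sets, the probe set of largest change and an unadjusted p under 0.05, 1 with the filter, trend and robust estimation and the exact permutation test, and 0 to 1 with an array left out (0 as reported). The cause of these shifts was not tested.

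Log2 fold changes that turned sign were all of uncalled members except Cenpa. They were -0.10 for Cenpa, -0.044 for Mcm5 and 0.034 for Cdc20 with plain _at probe sets, -0.074 for Mcm5, 0.15 for Aurka, 0.00387 for Kif23 and -0.10 for Tpx2 with the mean of all probe sets, and -0.21 for Mcm5, -0.17 for Rrm1, 0.34 for Aurka, 0.27 for Kif23 and -0.20 for Tpx2 with the probe set of largest change. With an array left out, Aurkb ran from -0.16 to 0.024, Mcm5 from -0.00204 to 0.086, Aurka from -0.12 to 0.012, Nuf2 from -0.083 to 0.023 and Plk1 from -0.099 to 0.00722, each with 1 array turning the sign. Without old replicates 2 and 4 Aurkb was at 0.031 and Tpx2 at -0.000339. Cdc6 had no value at a floor of 32, where all its arrays lay. Old and young arrays share replicate numbers, but same-numbered arrays correlated at 0.0971, 0.0190, 0.0219 and 0.0427 after the ages were centred, and only number 1 was closest to its own number, so the block is only an alternative.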
